A study of Mus musculus with 28 samples.

Results

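The monocyte chemokines Ccl2, Ccl7, Ccl8, Ccl12, Ccl3, Ccl4, Ccl6 and Ccl9 and the receptors Ccr2 and Ccr1 were followed through tumors and cultures of the mouse lung cancer line 3LL (Lewis lung carcinoma). A member was any row of the expression table that carries 1 of these 10 symbols, and 10 of 10 were found, with 1 row each, among 43143 rows and 18463 distinct symbols. All 10 were tested in the tumors. In culture Ccl2, Ccl7 and Ccl9 passed the filter on low values, which left 3 members to test there.

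RNA was sequenced from 28 libraries in 7 groups of 4. WT cells were the parental 3LL line, KEAP1-KO cells were derived from a single colony in which a CRISPR guide had left a homozygous insertion in exon 2 of Keap1, and DKO cells were derived from a single colony of KEAP1-KO cells edited with a guide to exon 5 of Nrf2 (Nfe2l2), so that the DKO cells lack KEAP1 as well. The study made more than 1 KEAP1-KO line, and the labels do not say which line a sample came from. Tumors grew under the skin of both flanks of 6-week-old male albino C57BL/6 mice, which keep their immune system, and were removed on day 10. Experiment A placed WT cells on the left and KEAP1-KO cells on the right, and Experiment B placed KEAP1-KO cells on the left and DKO cells on the right. Genotype and flank change together within an experiment and cannot be told apart. Genotype also changes together with the clone of the edited cells, in tumors and in culture, and these cannot be told apart either. The labels do not tie a tumor to a mouse, so the tumors of 1 mouse could not be paired. The cultures were the same 3 genotypes grown in RPMI medium with serum. The extraction text among the labels names liver, while the titles and the study describe tumors and 3LL cells. Nothing in the labels says whether the 4 cultures of a genotype were grown separately, so the p-values measure only the spread between these libraries.

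Values are log2(normalized count + 4), so that a gene with no read stands at 2 and a difference between low genes is understated. A difference is called where limma's adjusted p is below 0.05 over all rows tested. Reads recovered per library ran from 4222362 to 6048390 in tumors and from 5809005 to 7524293 in cells. The targeted genes were checked first. The gene row of Keap1 averaged 7.45 in KEAP1-KO and 8.88 in WT tumors of Experiment A, and Nqo1, a classical NRF2 target, averaged 12.4 against 6.85. Between DKO and KEAP1-KO samples Nqo1 differed by -6.30 in tumors and by -5.68 in cells on the log2 scale. The Nfe2l2 row is a single transcript that was not called in any of these comparisons, and its level does not show the edit itself.

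Chemokines are small secreted proteins that bind receptors that span the membrane several times and guide leukocytes along a gradient. CCL2 and its close relatives CCL7 and CCL12 act through CCR2, the receptor that inflammatory monocytes use to leave the bone marrow and enter tissue and tumors. CCL3 and the rodent chemokines CCL6 and CCL9 act through CCR1, and CCL4 is a macrophage inflammatory protein related to CCL3. Both tumor cells and macrophages can make the ligands, while CCR2 and CCR1 belong mainly to monocytes, macrophages and neutrophils. KEAP1 marks the transcription factor NRF2 for destruction, so loss of KEAP1 leaves NRF2 active.

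The ligands are CC chemokines, named for a pair of adjacent cysteines, and the coding bases around that pair are printed to show how near the members are to each other and at which point they part. Each stretch runs 5′ to 3′ on the coding strand, is taken from the GENCODE vM21 transcripts (GRCm38), and has the codons of the adjacent cysteines in capitals. On chromosome 11 these codons lie at chr11:82036506-82036511 in Ccl2, chr11:82046538-82046543 in Ccl7, chr11:82102634-82102639 in Ccl12 and chr11:82116056-82116061 in Ccl8, all on the plus strand in exon 2. They lie at chr11:83648652-83648657 in Ccl3 (minus strand, exon 2), chr11:83663482-83663487 in Ccl4 (plus strand, exon 2), chr11:83589386-83589391 in Ccl6 (minus strand, exon 3) and chr11:83575926-83575931 in Ccl9 (minus strand, exon 3).
Ccl2: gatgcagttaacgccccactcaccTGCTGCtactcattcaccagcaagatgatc
Ccl7: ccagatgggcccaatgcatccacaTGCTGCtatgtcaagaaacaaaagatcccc
Ccl12: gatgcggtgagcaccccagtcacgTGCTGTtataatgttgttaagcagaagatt
Ccl8: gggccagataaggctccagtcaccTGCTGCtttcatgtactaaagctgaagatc
Ccl3: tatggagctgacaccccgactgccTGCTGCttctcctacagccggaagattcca
Ccl4: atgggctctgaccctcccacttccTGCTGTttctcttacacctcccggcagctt
Ccl6: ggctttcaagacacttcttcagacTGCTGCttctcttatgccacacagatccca
Ccl9: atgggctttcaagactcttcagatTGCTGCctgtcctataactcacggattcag

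Reads can be shared between such relatives, so the transcripts were compared by their runs of 31 bases. Over the transcripts compared, no run of 31 bases in Ccl2, Ccl7, Ccl8, Ccl12, Ccl3 or Ccl4 was found in a transcript of another gene. In Ccr1 the share was 0.642%, and in the transcripts of Ccr2 it was 4.12% to 8.41%. The listed transcripts of Ccl6 and Ccl9 shared 0% with other genes, while the coding transcripts, which are not the rows used, shared 1.28% (Ccl6) and 4.03% (Ccl9). The rows of Ccl7, Ccl8, Ccl12, Ccl3, Ccl4, Ccr2 and Ccr1 carry gene identifiers. The rows of Ccl2 (ENSMUST00000124479) and Ccl6 (ENSMUST00000138145) are retained-intron transcripts and that of Ccl9 (ENSMUST00000136131) is a processed transcript without a coding frame. These 3 rows share 66.7%, 90.8% and 89.4% of their runs with other transcripts of the same gene, so their reads cannot be cleanly assigned to the listed transcript, and their values are not totals of the gene.

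In Experiment A Ccl2, Ccl7, Ccl12 and Ccl8, which lie in 1 cluster on chromosome 11, were lower on the KEAP1-KO side. Ccl7, a monocyte attractant, read 10.68, 10.21, 11.09 and 11.23 in WT tumors and 7.97, 8.14, 8.08 and 8.21 in KEAP1-KO tumors. Every KEAP1-KO tumor lay below every WT tumor, with a difference of -2.70 ± 0.17 (SE, n = 4 per group, limma adjusted p = 3.04e-08), which is a ratio of 0.154. Ccl2, the main CCR2 ligand, read 8.18, 7.60, 8.09 and 8.22 in WT and 6.23, 5.58, 6.69 and 5.64 in KEAP1-KO tumors. Its groups did not overlap either, and its transcript differed by -1.99 ± 0.22 (SE, limma adjusted p = 1.25e-05). Ccl12, the third of the mouse monocyte attractants of this cluster, read 6.44, 5.79, 6.07 and 5.89 in WT tumors and 4.12, 4.70, 5.31 and 3.88 in KEAP1-KO tumors, a difference of -1.54 ± 0.32 (SE, limma adjusted p = 0.00396). Ccl8, a neighbour of Ccl12 in the genome, moved least of all members, from 8.02, 8.33, 8.11 and 7.80 in WT to 6.57, 7.50, 6.99 and 6.98 in KEAP1-KO tumors. That difference was -1.05 ± 0.22 (SE, limma adjusted p = 0.00438).

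The other ligands took the same direction. Ccl9, a myeloid attractant, read 8.74, 8.99, 8.99 and 8.17 in WT and 6.52, 6.85, 6.81 and 6.69 in KEAP1-KO tumors, which differed by -2.0 ± 0.20 (SE, limma adjusted p = 4.69e-06). Ccl6, its close relative and neighbour, read 8.87, 9.51, 9.45 and 9.12 in WT and 7.28, 8.19, 7.54 and 8.04 in KEAP1-KO tumors, a difference of -1.48 ± 0.20 (SE, limma adjusted p = 7.73e-05). Neither transcript had a KEAP1-KO tumor within the range of the WT tumors. Ccl3, made by activated macrophages, read 5.22, 4.34, 5.13 and 5.37 against 2.87, 3.73, 2.57 and 3.97, and differed by -1.73 ± 0.33 (SE, limma adjusted p = 0.00216). Ccl4 lay close to the floor, with 2 to 20 reads in a tumor, and read 4.20, 4.12, 4.35 and 4.39 in WT and 3.26, 3.11, 3.14 and 3.15 in KEAP1-KO tumors. The difference was -1.10 ± 0.20 (SE, limma adjusted p = 0.00153), which understates the ratio of the counts.

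The receptors fell as well. Ccr2 read 8.73, 8.53, 8.20 and 7.83 in WT tumors and 5.46, 2.90, 5.20 and 4.72 in KEAP1-KO tumors. This was the widest difference among the members, -3.75 ± 0.42 (SE, limma adjusted p = 1.28e-05), a ratio of 0.0741. The second KEAP1-KO tumor, with 3 reads of Ccr2, stood far below the other three, and leaving out any 1 of the 8 tumors gave differences between -4.05 and -3.20. Ccr1 had tight groups, 7.86, 7.60, 7.65 and 7.91 in WT against 5.73, 5.44, 5.71 and 5.58 in KEAP1-KO tumors. It differed by -2.14 ± 0.14 (SE, limma adjusted p = 7.52e-08).

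**Figure D1:**
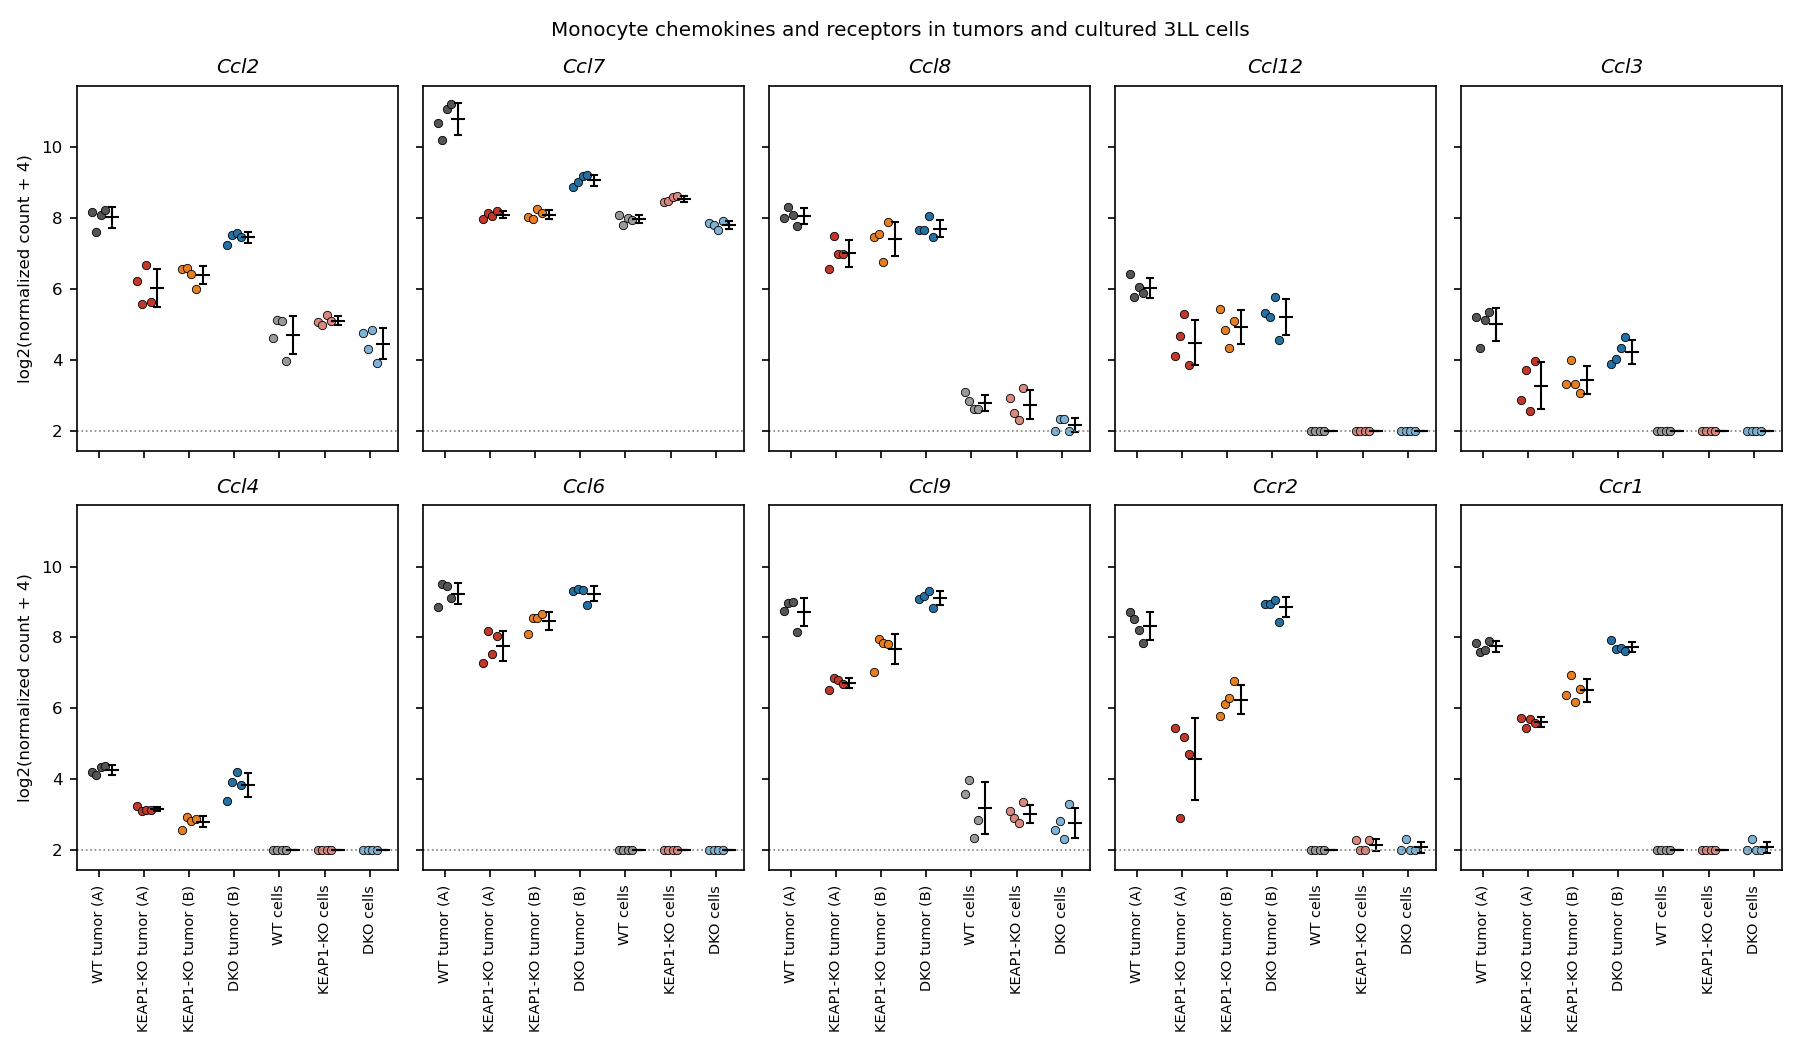
Levels of the 10 members in the 7 groups, 1 panel per gene, with log2(normalized count + 4) on the vertical axis. Points are libraries, horizontal marks with bars are the mean ± SD of 4 libraries, and the dotted line at 2 is the value of a gene with no read. Each gene is lower in both sets of KEAP1-KO tumors than in WT tumors by its group mean, and Ccl7 is the 1 member well above the dotted line in every culture, with Ccl2 the next.

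In all, 10 of 10 members were called lower in KEAP1-KO tumors, where 7.49% of the 34215 rows tested were called lower, and 10 of 10 did not overlap between the groups, against 9.05% of rows that were lower without overlap. The median difference of the members was -1.86, and that of all rows was -0.03.

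Markers of myeloid cells moved with the members. Of 18 markers of monocytes and macrophages, 16 were called lower in the KEAP1-KO tumors of Experiment A, among them Ly6c2 (-3.33), a marker of inflammatory monocytes, and Chil3 (-3.03). Their summed normalized count was 9983 to 13687 in WT tumors and 4292 to 5111 in KEAP1-KO tumors. All 5 general leukocyte markers were lower, with a sum of 1736 to 2123 in WT and 376 to 451 in KEAP1-KO tumors, and Cd52 (-3.18) and Coro1a (-2.70), both made in leukocytes at large, fell furthest. Of 5 neutrophil markers 4 were lower, led by Csf3r (-2.33), the receptor of granulocyte colony-stimulating factor, and S100a9 (-2.16). Of the lymphocyte markers, 3 of 4 tested for T and NK cells were lower, among them Prf1 (-2.06) and Gzma (-1.84) of cytotoxic cells, and the 1 tested B-cell marker was not called. Among the 4 dendritic cell markers Itgax was lower (-0.83). Of 5 fibroblast markers only Dcn, a matrix proteoglycan, was lower (-1.78), and neither the 4 endothelial markers nor the 2 muscle markers tested were called. In a bulk tumor, fewer cells of a type and less RNA per cell cannot be told apart, and the part of these cell types in the chemokine and receptor differences was not tested.

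**Figure D2:**
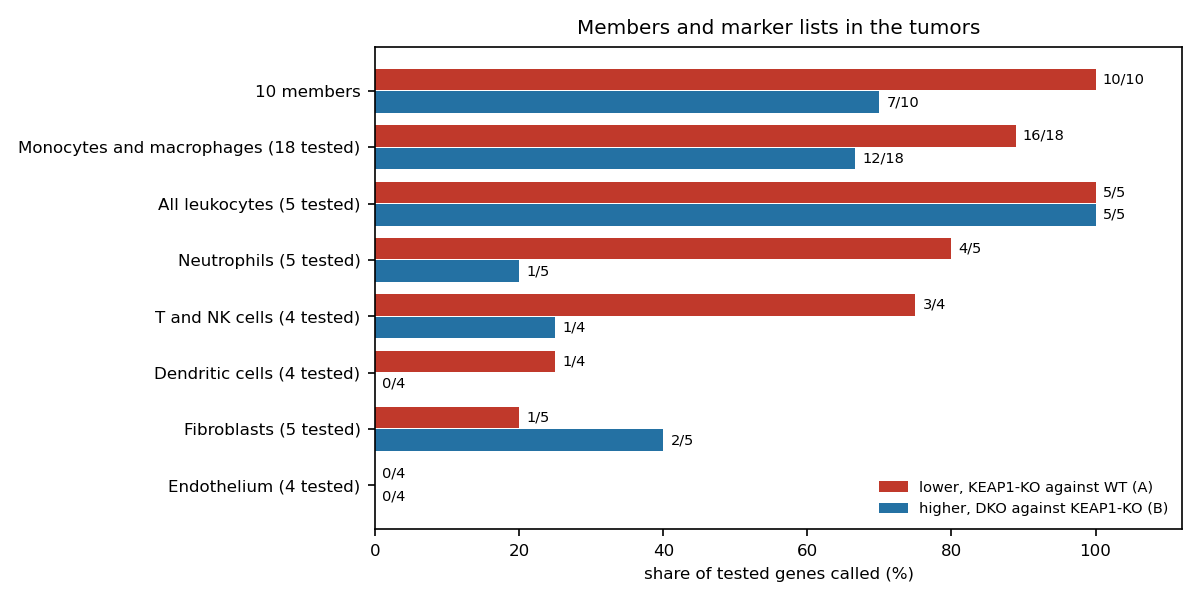
Share of tested genes called lower in KEAP1-KO tumors against WT (Experiment A) and higher in DKO than in KEAP1-KO tumors (Experiment B), in percent, for the members and for each marker list. The labels at the bars give genes called over genes tested. The members (10/10 and 7/10) and the general leukocyte markers (5/5 in both) have high shares in each comparison, and the endothelial markers (0/4 in both) have none.

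In Experiment B the question was what loss of NRF2 does to a KEAP1-KO tumor. Ccr2 read 5.78, 6.13, 6.31 and 6.77 in KEAP1-KO and 8.96, 8.96, 9.07 and 8.43 in DKO tumors, a rise of 2.61 ± 0.42 (SE, n = 4 per group, limma adjusted p = 0.000672). Ccr1 read 6.39, 6.93, 6.17 and 6.56 in KEAP1-KO and 7.92, 7.67, 7.69 and 7.62 in DKO tumors, a rise of 1.21 ± 0.14 (SE, limma adjusted p = 3.97e-05). All DKO tumors stood above all KEAP1-KO tumors for both receptors.

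In this same cluster Ccl2 and Ccl7 rose and Ccl8 and Ccl12 were not called. Ccl7 read 8.03, 7.97, 8.25 and 8.14 in KEAP1-KO and 8.88, 9.02, 9.18 and 9.22 in DKO tumors, a difference of 0.98 ± 0.17 (SE, limma adjusted p = 0.00113). Ccl2 read 6.57, 6.60, 6.43 and 6.02 against 7.25, 7.54, 7.60 and 7.47 and differed by 1.06 ± 0.22 (SE, limma adjusted p = 0.00545). Both had groups without overlap. Ccl8 read 7.47, 7.55, 6.76 and 7.89 in KEAP1-KO and 7.67, 7.67, 8.05 and 7.46 in DKO tumors (difference 0.29, limma adjusted p = 0.526), and Ccl12 read 5.46, 4.86, 4.34 and 5.11 against 5.33, 5.21, 5.78 and 4.56 (0.28, limma adjusted p = 0.714). For these 2 ligands the groups overlapped.

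On the log2(normalized count + 4) scale Ccl9 rose most of the CCR1 ligands, from 7.04, 7.97, 7.85 and 7.81 in KEAP1-KO to 9.09, 9.17, 9.31 and 8.84 in DKO tumors (1.44 ± 0.20, SE, limma adjusted p = 0.000217). Ccl4 read 2.58, 2.95, 2.82 and 2.89 against 3.40, 3.94, 4.21 and 3.83, with 1.04 ± 0.20 between the means (SE, limma adjusted p = 0.00365). In mean normalized counts Ccl4 went from 3.04 to 10.7 and Ccl9 from 205 to 550, so by ratio Ccl4 rose more. Ccl6 read 8.10, 8.56, 8.55 and 8.66 against 9.32, 9.36, 9.34 and 8.93, with 0.77 ± 0.20 (SE, limma adjusted p = 0.0209), and this call was lost when KEAP1-KO replicate 1 or DKO replicate 1, 2 or 3 was left out (adjusted p 0.0568 to 0.071). Ccl3 read 3.32, 4.01, 3.33 and 3.09 against 3.90, 4.03, 4.34 and 4.66, a difference of 0.79 that was not called (limma adjusted p = 0.182).

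That makes 7 of 10 members called higher in DKO tumors, where 4.22% of rows were called higher. The same number, 7 of 10, had groups without overlap, against 7.14% of rows, and the median difference was 1.01, with 0 over all rows. The markers moved here too. Of the monocyte and macrophage markers 12 of 18 were called higher, with sums of 6764 to 7761 in KEAP1-KO and 9976 to 13532 in DKO tumors, and Ly6c2 (3.62) and Chil3 (3.15) again led. The leukocyte markers were higher in 5 of 5 cases, with sums of 620 to 817 and 1161 to 1829. Of the neutrophil markers 1 of 5 was called (Csf3r, 1.27), and of the T and NK markers 1 of 4 (Prf1, 1.46), while Flt3 of the dendritic list was lower (-1.53). The B-cell and endothelial markers were not called, Acta1 of the muscle list was higher (2.96), and the fibroblast markers Dcn (2.85) and Lum (2.23) were higher. The part of these cells in the result was not tested.

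**Figure D3:**
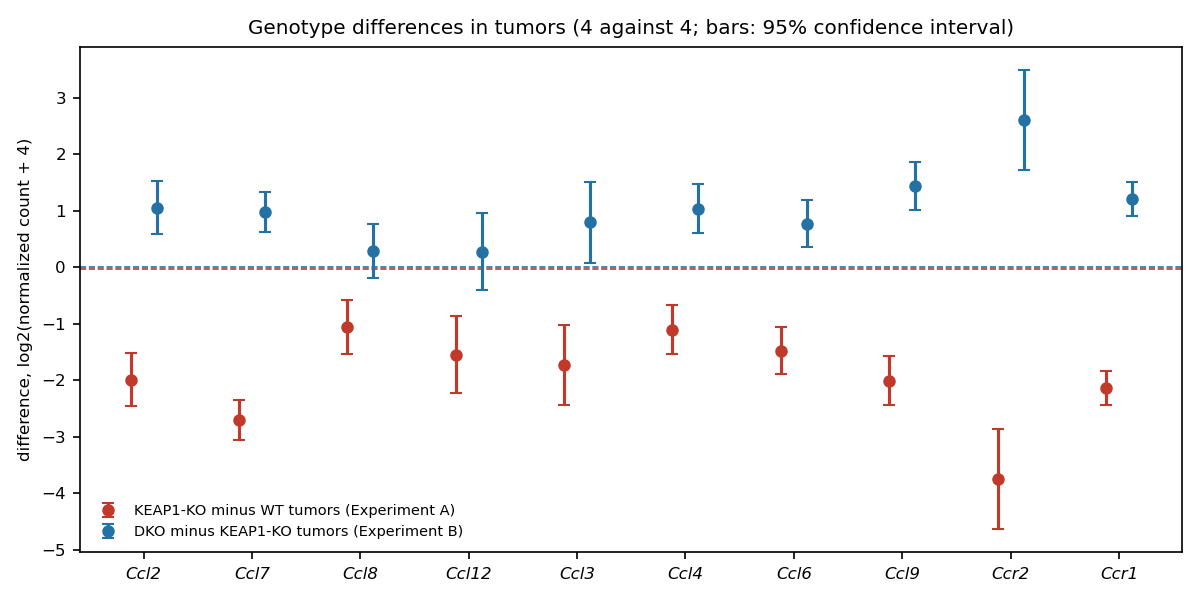
Genotype differences of the 10 members in tumors, on the log2(normalized count + 4) scale, for KEAP1-KO minus WT (Experiment A) and DKO minus KEAP1-KO (Experiment B). Points are differences of 4 against 4 tumors and bars are 95% confidence intervals, and dashed lines mark the median of all rows. In Experiment A the differences run from -3.75 for Ccr2 to -1.05 for Ccl8, and in Experiment B from 0.28 for Ccl12 to 2.61 for Ccr2.

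KEAP1-KO tumors were made in both experiments, on opposite flanks, and they were not alike for every member. Ccr1 was higher in Experiment B by 0.90 ± 0.14 (SE, n = 4 per group, limma adjusted p = 0.0259), where 0.152% of all rows were called higher. This call was lost when KEAP1-KO replicate 1, 2 or 4 of Experiment A, or 2 or 4 of Experiment B, was left out, and with only the groups compared in the fit (limma adjusted p = 0.178) or no trend (0.0854), while without replicate 1 of Experiment B Ccl9 was called in addition. Ccr2 and Ccl9 were not called in the full comparison (1.67, adjusted p = 0.194, and 0.95, adjusted p = 0.092, limma), but no library of 1 experiment reached the range of the other for either of them or for Ccr1, where 2.55% of rows were higher without overlap. Ccl4 was lower without overlap (-0.36, limma adjusted p = 0.725), where 1.56% of rows were. Ccl7 averaged 8.10 in both sets of tumors. In these same tumors 6 of the 18 monocyte and macrophage markers were called higher in Experiment B, led by Csf1r (1.02), the receptor that macrophages need to survive, and C1qb (0.95), a complement subunit. Of the 5 leukocyte markers Cd52 (1.30) and Ptprc (0.81) were called higher, with sums of 376 to 451 in Experiment A and 620 to 817 in Experiment B, and no marker of the other lists was called. The part of these cells, and that of flank or experiment, in the Ccr1 difference was not tested.

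WT tumors of Experiment A were also set against DKO tumors of Experiment B, which come from a separate experiment. Ccl7 was the 1 member called, lower in DKO tumors by 1.73 on the log2 scale (-1.73 ± 0.17, SE, limma adjusted p = 5.54e-06), and 5.99% of rows were called lower. Ccl2 (-0.56, limma adjusted p = 0.128) and Ccl12 (-0.83, limma adjusted p = 0.127) were also below WT tumors without overlap, where 9.03% of rows were. Intervals for the others limit the size of a difference. Ccl6 differed by 0.00 with a 95% interval of -0.42 to 0.42, and Ccr1 by -0.02 with an interval of -0.33 to 0.28. Ccl9 (0.38) and Ccr2 (0.53) had higher means in DKO tumors and were not called (limma adjusted p = 0.279 and 0.508). Of the markers, 4 of 5 for neutrophils were lower in DKO tumors, led by Retnlg (-2.25) and S100a9 (-2.23), with sums of 225 to 299 against 429 to 1840 in WT tumors. Ptprc alone of the 5 leukocyte markers was lower (-0.49), as were Flt3 (-1.65) and Itgax (-0.58) of the dendritic list, and the 18 monocyte and macrophage markers had a median difference of -0.13, without a call. Lum (1.64) and Dcn (0.93) of the fibroblasts and Acta1 (2.39) of muscle were higher, and no T, NK, B or endothelial marker was called. The part of these cells in the Ccl7 difference was not tested. Since WT and DKO tumors were not grown in the same experiment, genotype and experiment cannot be told apart here.

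The order of the group means was WT, DKO, KEAP1-KO of Experiment B and KEAP1-KO of Experiment A for Ccl2, Ccl8, Ccl12, Ccl3 and Ccr1. Ccl9 and Ccr2 had DKO first, Ccl4 had the KEAP1-KO tumors in the opposite order, and Ccl6 and Ccl7 had a tie. Among the 5 genes with that order, the genotypes of Experiment B were called apart for Ccl2 and Ccr1, the KEAP1-KO sets for Ccr1, and WT and DKO tumors for none. For Ccl7 the WT and DKO means were called apart and the tied KEAP1-KO means were not.

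In cultured cells the picture was different. Ccl7 read 8.08, 7.82, 8.02 and 7.96 in WT, 8.47, 8.49, 8.60 and 8.63 in KEAP1-KO and 7.86, 7.81, 7.67 and 7.92 in DKO cells. KEAP1-KO cells were above both other genotypes without overlap (9.9% of rows were above WT in this way), by 0.58 ± 0.077 over WT (SE, n = 4 per group, limma adjusted p = 0.000197), and DKO cells were lower than KEAP1-KO cells (-0.73 ± 0.077, SE, limma adjusted p = 4.48e-05). It was the 1 call among the 3 members tested in either comparison, where 8.13% of 29744 rows were called higher and 4.85% lower. Ccl2 read 4.62, 5.14, 5.10 and 3.98 in WT, 5.08, 5.0, 5.28 and 5.11 in KEAP1-KO and 4.78, 4.30, 4.87 and 3.92 in DKO cells. Its differences were 0.41 (limma adjusted p = 0.403) and -0.65 (limma adjusted p = 0.215), with no overlap in the second, where 7.84% of rows were lower without overlap. Ccl9 had 1 to 11 reads per culture, and its differences of -0.15 and -0.27 were not called (limma adjusted p = 0.848 and 0.765).

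Between DKO and WT cells 0 members were called by limma, where 17.7% of rows were called in either direction. The differences were -0.15 for Ccl7, -0.24 for Ccl2 and -0.43 for Ccl9 (adjusted p = 0.212, 0.627 and 0.496), and 0 of the 3 had an unadjusted p below 0.05.

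The other members were at or near 0 in culture. Ccl12, Ccl3, Ccl4 and Ccl6 had 0 reads in all 12 cultures, which allows up to 0.125 RPM (reads scaled to a common library size) in WT, 0.106 in KEAP1-KO and 0.114 in DKO cells (3 reads over the 4 libraries, counting error only). Ccr2 and Ccr1 had 0 or 1 read and Ccl8 0 to 6 reads per culture. The leukocyte markers summed to 2.28 to 8.41 normalized counts in a culture and the monocyte and macrophage markers to 97 to 258. Of the latter list Cd14 averaged 6.50, 6.73 and 7.62 in WT, KEAP1-KO and DKO cells, and Cd68 4.45, 6.83 and 5.57. Adgre1 and Chil3 were at 0 in every culture. The markers of all lists called in KEAP1-KO against WT cells were Cd68 (2.38), Cxcr2 (0.98), Cdh5 (1.87), Dcn (-1.02) and Acta1 (-0.97), and those in DKO against KEAP1-KO cells were Cd68 (-1.26), Cd14 (0.89), Cxcr2 (-0.58), Dcn (1.67) and Cdh5 (1.30). The cultures were of 3LL cells alone, and any link of these genes to the Ccl7 values was not tested.

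**Figure D4:**
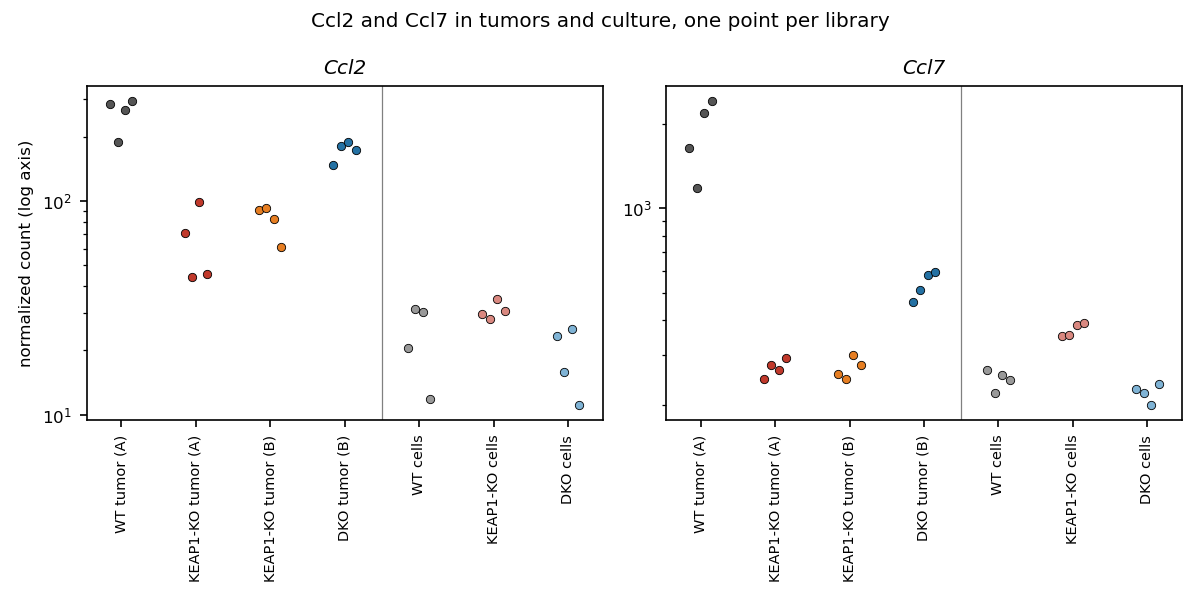
Normalized counts of Ccl2 (left) and Ccl7 (right) on a log axis, 1 point per library in the 7 groups, with the vertical line dividing tumors from cultures. Ccl7 falls from WT to KEAP1-KO tumors and is higher in KEAP1-KO than in WT cells, and the highest Ccl2 culture lies below the lowest tumor.

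The difference between the tumor and the culture effect was tested as an interaction over all 28 libraries and 37246 rows. The KEAP1-KO effect was lower in tumors than in culture for 9 members, where 3.88% of rows were, and Ccl8 was not called (-1.0, limma adjusted p = 0.0703). For Ccl7 the effects had opposite signs, both called, and the interaction was -3.28 ± 0.20 (SE, limma adjusted p = 9.03e-11). Over the 28192 rows tested in both settings, 0.309% were called lower in tumors and higher in cells. The NRF2 effect, DKO minus KEAP1-KO, was higher in tumors for Ccl2, Ccl7, Ccl4, Ccl9, Ccr2 and Ccr1, where 2.12% of rows were, with Ccl7 at 1.71 ± 0.20 (SE, limma adjusted p = 4.29e-06) and Ccl2 at 1.71 ± 0.35 (SE, limma adjusted p = 0.00449). For Ccl9 both interactions were past the threshold (-1.85 and 1.71) but were lost with a pseudocount of 1 (-1.90, limma adjusted p = 0.0534, and 1.95, limma adjusted p = 0.06). The NRF2 interaction of Ccr1 was lost with the same pseudocount (0.98, limma adjusted p = 0.0748), and that of Ccl4 with only the groups compared in the fit (1.04, limma adjusted p = 0.0502). For Ccl12, Ccl3, Ccl4, Ccl6, Ccr2 and Ccr1, with 0 or 1 read in a culture, the interaction restates the tumor difference and the count of members is a description. Both effects share the KEAP1-KO cells, and the tumor effects come from separate experiments.

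Ccl7 was 1 of 13 rows, 0.0461% of those tested, that were called lower and then higher in tumors and higher and then lower in cells through the steps from WT to KEAP1-KO to DKO. Among the others were Gbp7, Cd68, C3ar1, Ifi209, Cmpk2, Igtp, H2-T23, Ly6a, Tap2 and Ifitm3, which include interferon-induced genes (Gbp7, Igtp, Ifitm3) and genes of phagocytes (Cd68, C3ar1). This set was put together after its values were seen. The order of Ccl7 over all groups was WT tumors (10.80 ± 0.46, SD, n = 4), DKO tumors (9.07 ± 0.16), KEAP1-KO cells (8.55 ± 0.079), KEAP1-KO tumors (8.10 ± 0.10 and 8.10 ± 0.13), WT cells (7.97 ± 0.11) and DKO cells (7.82 ± 0.11). The ranges of the KEAP1-KO tumors overlapped that of the WT cells, and those of WT and DKO cells overlapped each other.

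Tumors were set against the culture of the same genotype in the same fit. Ccl12, Ccl3, Ccl4, Ccl6, Ccr2 and Ccr1, with 0 or 1 read in a culture, and Ccl8, with 0 to 6, entered this fit only through the tumors, so that their higher calls had to follow, and the counts over the members are a description. All 10 members were higher in WT tumors, where 24.7% of rows were, and 10 in DKO tumors, where 27.6% were. In KEAP1-KO tumors of both experiments 9 were higher (23.9% of rows in each) and Ccl7 was lower, where 15.8% and 14.9% of rows were. Ccl6, with no read in culture, was at least 988-fold higher in WT tumors, 411-fold in KEAP1-KO tumors of Experiment A, 672-fold in those of Experiment B and 1138-fold in DKO tumors (RPM, against 3 reads over the cultures). Ccr2 was at least 527-fold and Ccr1 at least 347-fold higher in WT tumors. Ccl12, Ccl3 and Ccl4 were at least 103-fold, 48.5-fold and 25-fold higher there. Ccl9 and Ccl8, with some reads in culture, were 94.4-fold and 117.4-fold higher in WT tumors.

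Ccl2 was 3.31 higher in WT tumors than in WT cells on the log2 scale, 0.92 and 1.29 higher in the KEAP1-KO tumors and 3.00 higher in DKO tumors. Ccl7 was 2.83 higher in WT tumors and 1.26 higher in DKO tumors, but -0.45 in KEAP1-KO tumors of either experiment (limma adjusted p = 0.0117 in each). That lower call was lost with quantile normalization (-0.17, adjusted p = 0.396, and -0.18, adjusted p = 0.359) and with scaling by library totals (-0.10, adjusted p = 0.551, and -0.08, adjusted p = 0.657). In RPM Ccl7 stood at 54.0 and 54.7 in KEAP1-KO tumors and 57.7 in KEAP1-KO cells. The median of all rows between tumors and cells moved with the scaling, from 0.16 to 0.23 as deposited to 0.37 to 0.51 by library totals.

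The 250 bases before the RefSeq start of 7 members (Ccl8, Ccl12, Ccl3, Ccl6, Ccl9, Ccr2 and Ccr1, from RefSeq, build GRCm38.p6) were searched on both strands for 6 short motifs. TGACNNNGC, the core of the antioxidant response element that NRF2 binds, was in 0 of 7 windows and in 10.2% of 32851 windows of that length. An NF-kB motif, GGG and TTTCC with 2 free bases between them, was in Ccl9 alone, against 1.41% of windows. TGANTCA, a loose form of the AP-1 motif with its middle base left free, was likewise in Ccl9 alone, as TGAATCA, against 6.75%. GAGGAA, the core of the site of the myeloid factor PU.1, was in Ccl8, Ccl12, Ccl3 and Ccr1, 4 of 7, against 23.3%. A pair of GAAA with 2 free bases between them, of interferon response elements, and TTGCNNAA, of C/EBP factors, were in 0 of 7, against 2.98% and 9.56%. The matches in Ccl9 do not overlap: the AP-1 match starts 53 bases and the NF-kB match 35 bases before the gene. A match is a run of letters, not a bound site, and the absence of one says only that these letters are not in this window.

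Shown are the windows of Ccl9, of its neighbour Ccl6 and of Ccr1. Ccl9 was called higher in DKO tumors and holds the AP-1 and NF-kB letters. Ccl6 holds no match, and Ccr1 holds the PU.1 core. All 3 are on the minus strand and printed 5′ to 3′ towards the gene, at chr11:83578637-83578886, chr11:83593088-83593337 and chr9:123968693-123968942, with matches in capitals.
Ccl9: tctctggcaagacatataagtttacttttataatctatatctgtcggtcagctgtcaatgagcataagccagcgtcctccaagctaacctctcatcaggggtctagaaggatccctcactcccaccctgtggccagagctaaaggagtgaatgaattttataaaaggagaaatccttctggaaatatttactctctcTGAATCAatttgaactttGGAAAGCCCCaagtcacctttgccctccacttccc
Ccl6: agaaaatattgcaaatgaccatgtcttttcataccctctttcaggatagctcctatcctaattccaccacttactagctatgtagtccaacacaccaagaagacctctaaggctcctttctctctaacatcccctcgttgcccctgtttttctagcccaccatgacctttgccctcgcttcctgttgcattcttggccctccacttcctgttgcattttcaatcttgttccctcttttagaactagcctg
Ccr1: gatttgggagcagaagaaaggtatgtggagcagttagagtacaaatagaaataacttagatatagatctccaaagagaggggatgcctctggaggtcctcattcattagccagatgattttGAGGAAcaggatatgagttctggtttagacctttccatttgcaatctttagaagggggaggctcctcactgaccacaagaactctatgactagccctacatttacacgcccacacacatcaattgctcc

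The rest of the chemokine system was read from lists of genes. Of 13 other CC and CX3C chemokines, 6 were in the table and 5 were tested in tumors. Ccl5, an attractant of T cells and monocytes, was lower in KEAP1-KO tumors of Experiment A (-1.49, limma adjusted p = 0.00192) and higher in DKO tumors of Experiment B (1.51, limma adjusted p = 0.00271), and Ccl22, an attractant of regulatory T cells, was lower in the first (-1.49, limma adjusted p = 0.00551). No other gene of this list was called in either comparison, and of the 2 tested in cells none was called between adjacent genotypes.

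Of 14 other receptors, 7 were tested in tumors. In Experiment A 4 were lower, among them Cx3cr1 (-1.69, limma adjusted p = 0.00252), the fractalkine receptor of patrolling monocytes and macrophages. Ackr3, a scavenging receptor, was higher (0.90, limma adjusted p = 0.00975). In Experiment B 2 were higher, among them Ccr7 (1.03, limma adjusted p = 0.0464), which guides cells to lymph nodes. Ackr3 was the 1 receptor tested in cells and was higher in both steps (1.27 and 0.99).

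Of 17 genes that signal below these receptors, 16 were tested in tumors, 9 were lower in Experiment A and 8 were higher in Experiment B. The transcript of Dock2, a leukocyte activator of Rac, differed by -2.28 and 1.40, Pik3cg, the PI3-kinase used by chemokine receptors, by -2.21 in the first, and Pik3r5, its regulatory partner, by 1.26 in the second. In cells 10 were tested. Gng2, a G protein subunit, was higher (1.02) and Rac2 lower (-0.85) in KEAP1-KO against WT cells, and Arrb1, an arrestin, was lower in DKO against KEAP1-KO cells (-0.57).

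Of 21 inducers and regulators of these chemokine genes, 17 were tested in tumors. In Experiment A 5 were lower, led by the transcripts of Il1b (-2.81), the inflammatory cytokine, and Irf1 (-1.91), an interferon-induced factor, and Cebpb was higher (0.37). In Experiment B 4 were higher, led by Il1b (1.78) and Tnf (0.98), and Cebpb was lower (-0.91). In cells 13 were tested, and 5 were higher in KEAP1-KO than in WT cells: Zfp36 (1.21), which promotes the decay of cytokine mRNAs, Fos (0.97) and Jun (0.93) of AP-1, Cebpb (0.61) and Rel (0.45) of NF-kB. In DKO against KEAP1-KO cells Cebpb was lower (-0.59) and Nfkbiz, an inducible regulator of NF-kB, was higher (0.38).

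Over the 16 tumors, the rows whose values were most like a member's were found among 15493 rows by Pearson's r, given as a description because the tumors fall into genotype groups and share their libraries. For Ccl9 these were C5ar1 (0.982), C3ar1 (0.981) and Ctss (0.977), and for Ccr2 it was Sirpb1c (0.981). For the genes of the Ccl2 cluster they were Ksr2 for Ccl7 (0.975), Pdia4 for Ccl2 (0.965), Arl6ip1 for Ccl8 (0.933) and Gm50387 for Ccl12 (0.924). For Ccl6 it was Cysltr1 (0.947), for Ccl4 B3gnt5 (0.961) and for Ccl3 Mmp8 (0.897). Between members, the r of Ccr2 was 0.942 with Ccr1, 0.927 with Ccl9, 0.854 with Ccl2 and 0.819 with Ccl6, and 0.586 to 0.711 with the other 5.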

How the data were processed

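The samples were 16 tumors and 12 cultures of 3LL cells, placed in 7 groups of 4 by their titles. Per the study's methods and the submitters' processing notes, ribosomal RNA was removed, strand-specific libraries were read as pairs, and reads were quantified with Salmon against GENCODE mouse transcripts (version 35 per the methods) and passed to iDEP. The log2 values that the authors deposited are log2(normalized count + 4). The values themselves show this, since the lowest is 2 and reversing the transform gave whole reads, within 0.05, for 100% of low values. TPM, named in the methods and assumed by the design, did not hold, so equivalent settings were used. The sources name no genome build beside that release. Sequences, shared runs and coordinates come from the reference used here, GENCODE vM21 on GRCm38, which is another release. The table has 0 other columns of values.

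Genotypes were compared by limma 3.58.1 under R 4.3.3 (eBayes with a trend, Benjamini-Hochberg adjustment, threshold 0.05), with all tumor groups, all cell groups or all 28 libraries in 1 fit. A row entered a fit if 4 or more of its libraries had a normalized count of 5 or above, which left 34215, 29744 and 37246 rows. The fits were tested on simulated data.

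The members and lists were chosen with earlier results of these data known. Named are all members, Keap1, Nfe2l2 and Nqo1, the 2 largest called differences in each direction of a pathway or marker list, and the rows most like a member, except items that are not reported here. Further genes of the lists and the rows that share the pattern of Ccl7 were named after their values were seen. The lists are other CC and CX3C chemokines, other receptors, signalling below receptors, inducers and regulators, and markers of monocytes and macrophages, neutrophils, all leukocytes, T and NK cells, B cells, dendritic cells, fibroblasts, endothelium and skeletal muscle. The alternatives were other pseudocounts, filters and normalizations, only the groups compared, no trend, the sum of a gene's rows, the replicate number as a block, a size threshold and each library left out. Scaling by library totals was chosen after seeing the data.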

Additional observations from a re-analysis of the deposited data

Results flagged for a closer look

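The effect of genotype differed between tumors and culture for Ccl2, Ccl7 and Ccl9, and the other members below were also past the threshold, by the interaction test (limma, adjusted over 37246 rows, on the log2 scale). For the loss of KEAP1 the tumor effect minus the culture effect was -2.39 for Ccl2 (adjusted p = 6.03e-05), -3.28 for Ccl7 (9.03e-11) and -1.85 for Ccl9 (0.00342), the members that passed the filter in culture. It was -1.54 for Ccl12 (adjusted p = 0.0142), -1.73 for Ccl3 (0.00553), -1.10 for Ccl4 (0.00286) and -1.48 for Ccl6 (0.000155), which have no read there. For the receptors, with 0 or 1 read in a culture, it was -3.90 for Ccr2 (adjusted p = 5.35e-06) and -2.14 for Ccr1 (8.78e-08). For the loss of NRF2 this difference was 1.71 for Ccl2 (adjusted p = 0.00449), 1.71 for Ccl7 (4.29e-06), 1.04 for Ccl4 (0.00743) and 1.71 for Ccl9 (0.0104). It was 2.67 for Ccr2 (adjusted p = 0.00123) and 1.13 for Ccr1 (0.000943). For Ccl12, Ccl3, Ccl4, Ccl6, Ccr2 and Ccr1 these values restate the tumor differences, and for Ccl9 both were lost with a pseudocount of 1 (adjusted p = 0.0534 and 0.06). The NRF2 value of Ccr1 was lost with that pseudocount (0.98, adjusted p = 0.0748) and that of Ccl4 with only the groups compared in the fit (adjusted p = 0.0502).

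In 3 of the 55 groups of 4 with a spread, 1 library stood apart from its group, and chance alone sets about 1 in 20 such groups aside. Ccl6 in DKO tumor replicate 4 was 8.93, while the others were 9.32 to 9.36. Ccr2 and Ccr1 in DKO cell replicate 2 were 2.34 each, which is 1 read, while the other 3 cultures were at 2. A group with 1 read in 1 culture and none in the others is always flagged.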

How the results depend on the processing

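Over the 109 values of members followed, other settings left direction and call the same in 986 cases, lost a call in 19, gained one in 8 and turned the sign in 8. With a library left out the numbers were 999, 9, 4 and 12. The 10 lower members in Experiment A held under every setting and every library left out. In Experiment B the count of higher members was 5 to 7 (6 to 7 with a library left out), in the KEAP1 interaction 8 to 10 (9 to 10) and in the NRF2 interaction 4 to 7 (6 to 7). Signs turned only for differences near 0. Ccl6 in DKO against WT tumors was 3.63e-05 with a pseudocount of 1, 0.10 with quantile normalization, 0.0325 with median centring and 0.0809 with library totals, and Ccr1 was 0.0471, 0.00762 and 0.0552 with the last 3. Ccl7 between the KEAP1-KO tumors was 0.0248 with library totals. With a library left out, Ccl7 between the KEAP1-KO tumors ran from -0.0527 to 0.0421 and Ccl3 from -0.0859 to 0.38, and in DKO against WT tumors Ccl6 ran from -0.12 to 0.10 and Ccr1 from -0.0904 to 0.0266.

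Members called higher between the KEAP1-KO tumors, 1 as reported, were 0 with only the groups compared, 0 without a trend, 0 at a log2 difference of at least 1, 2 with the rows of a gene summed, and 0 to 2 with a library left out. In DKO against WT tumors 2 were lower with only the groups compared. With a log2 difference of at least 1, Ccl7 was not counted in cells, so that 0 were higher in KEAP1-KO and 0 lower in DKO cells. Between KEAP1-KO tumors and cells 0 were lower with that threshold, with quantile normalization and with library totals. Why was not tested beyond what each setting does.

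The replicate numbers were not used as pairs. Deviations of same-numbered samples correlated by -0.03 to 0.03, which cannot settle whether same-numbered tumors share a mouse. Between WT and DKO cells each replicate had its best match in the same number, and in the other comparisons none had. With the replicate block 10 members were lower in Experiment A, 7 higher in Experiment B, 1 higher and 1 lower in the steps between cells, and 9 and 6 passed the interactions, so no call changed. Low counts limit Ccl3, Ccl4 and Ccl12 in tumors and all members but Ccl7 and Ccl2 in culture.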
